A study of Ginkgo biloba with 2 samples.

Results

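Transcripts of the gibberellin and abscisic acid pathways were followed in ovules and leaves of the maidenhair tree, *Ginkgo biloba*. The members were the reference sequences whose deposited best-hit description names a protein of 1 of these hormones, such as a gibberellin oxidase, a DELLA protein, an abscisic acid receptor or a protein phosphatase 2C. The search took 66 of 64515 sequences, 17 for gibberellin and 47 for abscisic acid. The other 2 are GABA transporters, taken because "ABA " stands inside their name, and they were left out of both lists (48 ovule and 55 leaf reads). The 64 remaining members had 51 distinct best hits, so several are pieces or copies that match 1 protein. None of these hits was a ginkgo protein and 8 were conifer proteins, so names rest on similarity to distant plants. No description named an SnRK2 kinase. In ovule 9 of the 64 had 0 reads and in leaf 5, and 39 had at least 20 reads in all.

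Mature ovules and fully expanded leaves were taken from female trees in April 2012, and each tissue gave 1 library. The labels give no age, number of trees, growth condition or treatment. Neither tissue was replicated, so all contrasts are between a pair of libraries and have no test. Uniquely mapped reads numbered 4.6e+06 in ovules and 4.2e+06 in leaves. Light-harvesting, photosystem I and Rubisco activase sequences, which mark leaf, were compared in RPM, reads per 1000000 uniquely mapped reads. They summed to 1572 RPM in ovule and 6114 in leaf, with 19 of 32 higher in leaf and 2 in ovule. AINTEGUMENTA, AGAMOUS and GbMADS8 sequences, which mark ovule, summed to 335 RPM in ovule and 3.06 in leaf, with 4 of 6 higher in ovule and 2 in leaf. The AINTEGUMENTA-like sequences and the ginkgo AGAMOUS-like sequence had 0 leaf reads. The 2 higher in leaf were other sequences of this set, and all 7 sequences of the set held 13 leaf reads together. The part of tissue make-up in the results below was not tested, and in whole organs fewer cells of a type and less RNA per cell cannot be told apart.

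Gibberellins are growth hormones that promote stem elongation, germination and reproductive development. Plants make them from ent-kaurene, finish them with 20-oxidases and 3-oxidases and inactivate them with 2-oxidases. The hormone binds the receptor GID1, which leads to the breakdown of DELLA proteins, the repressors of the response. Abscisic acid is made in several steps from carotenoids, which 9-cis-epoxycarotenoid dioxygenase (NCED) cuts, and is inactivated by 8'-hydroxylase. The hormone is known for closing stomata, for drought responses and for seed maturation and dormancy. The PYR/PYL receptors of abscisic acid bind protein phosphatases 2C of 1 branch of that family, which frees SnRK2 kinases and, through them, transcription factors such as ABI5.

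Levels are in RPKM, which is RPM per 1000 bases of sequence, so that they can be set side by side across sequences. Folds are ratios of RPM. The range in brackets after a fold is its exact Clopper-Pearson 95% interval, which covers counting error only. Against 0 reads, the fold was computed with 3 reads in the empty library and is given as "at least", without the counting error of the library that had reads. Sequences passed the expression filter when either library reached an RPKM of 1. They were called higher in ovule or in leaf when log2((RPKM in ovule + 0.5)/(RPKM in leaf + 0.5)) lay 1 or more away from 0, a scale that understates differences of weak sequences. The rest are said to lie between and are not called.

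The gibberellin list pointed in no single direction, and among its DELLA and GASA sequences members of 1 family ran in opposite directions. Of the 17 sequences, 15 passed the expression filter, of which 4 were called higher in ovule, 5 called higher in leaf, and 6 lay between. Over all 56768 sequences past the filter, 27.3% were higher in ovule and 35.1% in leaf, close to the shares of this list, 26.7% and 33.3%. The median log2 ratio was 0.08, against -0.10 for all sequences. The list summed to 2346 ovule and 4648 leaf reads, 2.14-fold lower in ovules (2.03 to 2.25). Most of that excess was in the GAST1-like CL5553.Contig1 and without it the sums were 2340 ovule and 2591 leaf reads, 1.20-fold lower in ovules (1.13 to 1.26). The RPKM of the same remaining sequences summed to 381 in ovules against 249 in leaves. The direction of the sum without CL5553.Contig1 thus depended on whether sequence length was taken into account.

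**Figure D1:**
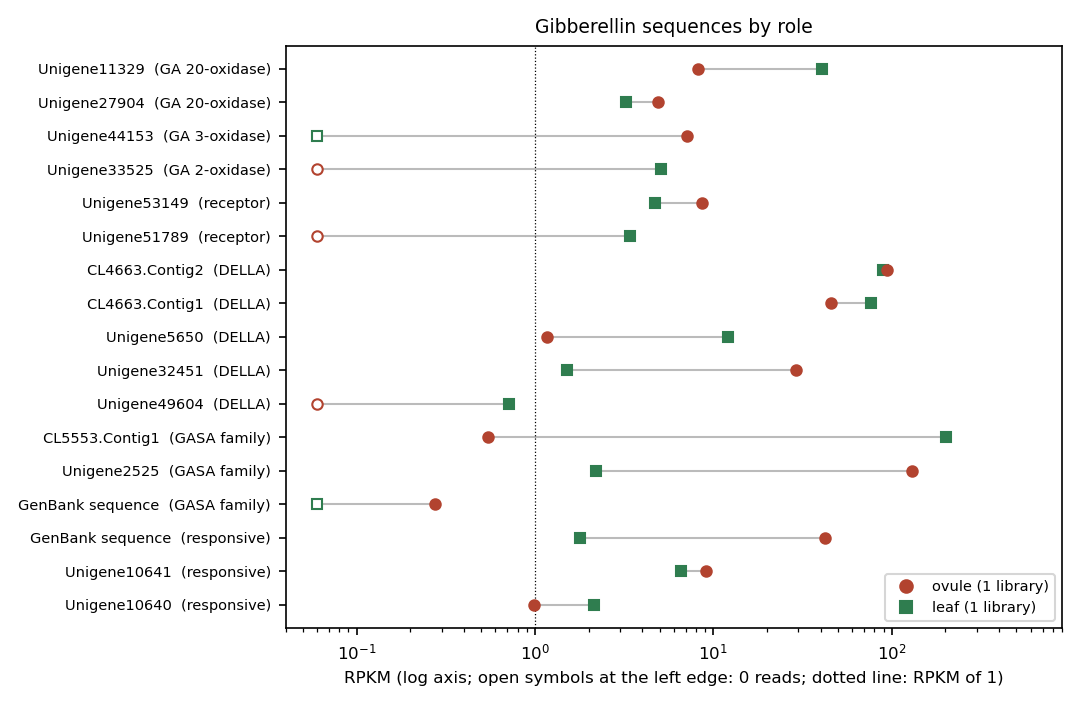
RPKM of the 17 gibberellin sequences in the ovule library (circles) and the leaf library (squares) on a log axis, grouped by role, with open symbols for 0 reads. The DELLA pair of cluster CL4663 lies close together near the right, whereas Unigene5650 and Unigene32451 of the same family have their symbols in opposite order, as do the GASA family sequences CL5553.Contig1 and Unigene2525.

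The 2 sequences named as 20-oxidases, the enzymes that carry out several late steps toward active gibberellins, differed in level. Unigene11329 had an RPKM of 8.26 in ovules against 40.7 in leaves (80 ovule and 365 leaf reads) and was 4.92-fold lower in ovules (3.86 to 6.35), with 68.2% of its bases covered in ovule and 89.6% in leaf. Unigene27904 stood at 4.88 in ovules against 3.24 in leaves, a 1.51-fold difference whose interval included 1 (0.778 to 3.0). The more abundant 20-oxidase was thus lower in ovules, and a difference of the weaker one was not detectable at this depth. The enzymes around this step had few reads. A 3-oxidase-like sequence (Unigene44153), of the family that forms the active hormone, had 7 ovule and 0 leaf reads, at least 2.16-fold higher in ovule. A 2-oxidase-like sequence (Unigene33525), of the inactivating family, had 0 ovule and 7 leaf reads, at least 2.52-fold lower in ovules. Each of these 2 rests on 7 reads in 1 library.

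Receptor sequences were short and scarce. Unigene53149, of 151 bases, had 6 ovule and 3 leaf reads, which this depth does not tell apart (0.396 to 11.5 for ovule over leaf). The GID1-like Unigene51789 had 0 ovule and 4 leaf reads, and its counting interval also included 1, although its RPKM of 3.43 in leaf made it a call. The level of gibberellin receptors is thus not resolved by these files.

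Of the gibberellin members with reads along most of their length, DELLA sequences had the most reads. CL4663.Contig2 had an RPKM of 94.1 in ovules against 89.1 in leaves with reads on 97.2% of its bases in ovule and 96.3% in leaf. Its 1.06-fold difference had an interval that included 1 (0.970 to 1.15). CL4663.Contig1, a contig of the same cluster with the same best hit, stood at 45.4 in ovules against 76.2 in leaves and was 1.68-fold lower in ovules (1.52 to 1.85). Both are described as GAI1-like, and because contigs of 1 cluster share sequence, how reads were split between them is uncertain. Summed over the pair, reads were 1.21-fold lower in ovules (1.14 to 1.29).

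A second pair of DELLA sequences ran in opposite directions. Unigene32451 had an RPKM of 28.9 in ovules against 1.52 in leaves (103 ovule and 5 leaf reads) and was 19.1-fold higher in ovules (7.92 to 60.0). Unigene5650 had an RPKM of 1.17 in ovules against 12.1 in leaves (11 ovule and 105 leaf reads) and was 10.3-fold lower in ovules (5.53 to 21.3). Each had few reads in the tissue where it was low. Their reads were spread along the sequence, with 94.8% of Unigene32451 covered in ovule and 84.6% of Unigene5650 in leaf. Together with the 1 leaf read of Unigene49604 these sequences summed to 114 ovule and 111 leaf reads, close to equal in reads. Their RPKM summed to 30.1 in ovules against 14.3 in leaves, because Unigene32451 has 777 bases and Unigene5650 has 2052. Over all 5 DELLA sequences the sum of reads was 1.21-fold lower in ovules (1.13 to 1.28).

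The GASA family encodes small cysteine-rich proteins whose founding member, GAST1 of tomato, is induced by gibberellin, and it held the largest contrasts in both directions of this list. The GASA5-like Unigene2525 had an RPKM of 129.9 in ovules against 2.19 in leaves (128 ovule and 2 leaf reads) and was 59.3-fold higher in ovules (16.1 to 495). Of all sequences in the ovule library it ranked 1039 by RPKM, although it is only 215 bases long. CL5553.Contig1, described as a GAST1 precursor, had an RPKM of 0.545 in ovules against 202 in leaves (6 ovule and 2057 leaf reads) and was 370.0-fold lower in ovules (169.7 to 1009). These 2057 leaf reads covered only 4.66% of the contig, 112 of 2402 bases, and the 6 ovule reads covered 107 bases. The contrast is therefore that of a stretch of 112 bases read with 49-base reads, and an RPKM divided by the whole contig length understates the level of that stretch. Another member, described as gibberellin-regulated protein 4-like, had 1 ovule read and none in leaf.

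**Figure D2:**
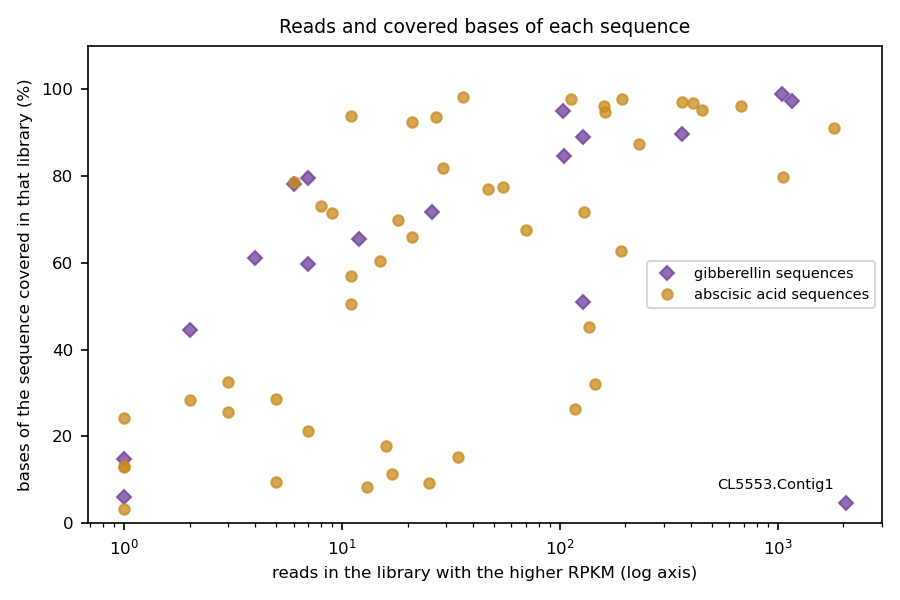
Percent of bases covered against the number of reads (log axis), both in the library where the sequence had the higher RPKM, for the 64 gibberellin (diamonds) and abscisic acid (circles) sequences. CL5553.Contig1 stands alone at the lower right, with 2057 reads on 4.66% of its bases.

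Other gibberellin-responsive sequences leaned to ovule through 1 of 3. A GenBank sequence described as a gibberellin induced protein had an RPKM of 42.5 in ovules against 1.79 in leaves (128 ovule and 5 leaf reads) and was 23.7-fold higher in ovules (9.90 to 74.3). A pair of chitin-inducible gibberellin-responsive sequences, of a GRAS protein type first described in rice, were not called. Unigene10641 had 12 ovule and 8 leaf reads, and Unigene10640 had 1 and 2.

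Genes of the gibberellin route that carry other names were looked up by class. Of 17 such sequences, 12 passed the filter, with 4 called higher in ovule, 5 called higher in leaf, and 3 between. These are 33.3% and 41.7% of the 12, beside 27.3% and 35.1% over all sequences. For the first steps, copalyl diphosphate synthase summed to 11 ovule and 10 leaf reads, not detectably different. Kaurene synthase summed to 39 ovule and 34 leaf reads, from sequences that ran opposite ways: Unigene31303 was 2.05-fold higher in ovules (1.06 to 4.17) and Unigene23761 was 4.86-fold lower in ovules (1.60 to 19.7), with 4 ovule and 18 leaf reads. Of these 2, Unigene23761 was called. Kaurene oxidase, which starts the oxidation of ent-kaurene, was split: a GenBank sequence had 316 ovule and 0 leaf reads, at least 97.6-fold higher in ovule, on 28.6% of its bases. The assembled kaurene oxidase CL491.Contig1, with 13 ovule and 31 leaf reads, was 2.57-fold lower in ovules (1.31 to 5.36). Its reads lay on 9.08% of its bases in ovule and 8.49% in leaf. A kaurenoic acid hydroxylase-like contig (CL353.Contig2) was 4.78-fold lower in ovules (2.06 to 12.9), with 31 leaf reads on 3.53% of its bases. On the signalling side, the GAMYB factor Unigene13163, of a family that acts downstream of gibberellin in cereals, had an RPKM of 27.2 in ovules against 4.56 in leaves and was 5.96-fold higher in ovules (3.50 to 10.8). The SPINDLY-like CL2300.Contig1, whose Arabidopsis counterpart restrains gibberellin responses, was 2.36-fold higher in ovules (1.81 to 3.09). No description named SLEEPY or a phytochrome interacting factor.

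The abscisic acid list leaned to ovule in number. Of 47 sequences, 44 passed the filter, of which 17 (38.6%) were called higher in ovule, 5 (11.4%) called higher in leaf, and 22 lay between, beside 27.3% and 35.1% over all sequences. Among all sequences with a functional description the shares were 30.2% and 25.5%, and among all with 20 or more reads 33.9% and 20.7%. Description and depth thus moved with direction over the whole table, and their part in the count of this list was not tested. Members with 20 or more reads gave 12 and 2 of 29. The median log2 ratio was 0.61, against 0.16 for described sequences and -0.10 for all. With empty libraries set to 3 reads these medians were 0.47, 0.04 and 0. At 20 or more reads the members had a median of 0.62, against 0.39 for all sequences of that depth. Where the counting interval also had to exclude 1, 13 were higher in ovule and 3 in leaf, beside 17.3% and 13.6% of all sequences. With TMM scaling, which sets library size by a trimmed mean of ratios, the calls were 13 and 7, while the median of all sequences was -0.24 in place of -0.10. Ratios close to 0 therefore carry no direction in either list. The list summed to 6397 ovule and 3890 leaf reads, 1.52-fold higher in ovules (1.46 to 1.59), or 1.28-fold (1.22 to 1.34) without its most-read member, CL7262.Contig1.

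Phosphatases made up most of the list. Without the 30 protein phosphatase 2C sequences, the other 16 that passed the filter split into 6 higher in ovule, 3 higher in leaf and 7 between. These are 37.5% and 18.8% of the 16, beside 27.3% and 35.1% over all sequences, and 39.3% of the phosphatases were higher in ovule. The median of the 16 was -0.12, against -0.10 for all sequences.

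**Figure D3:**
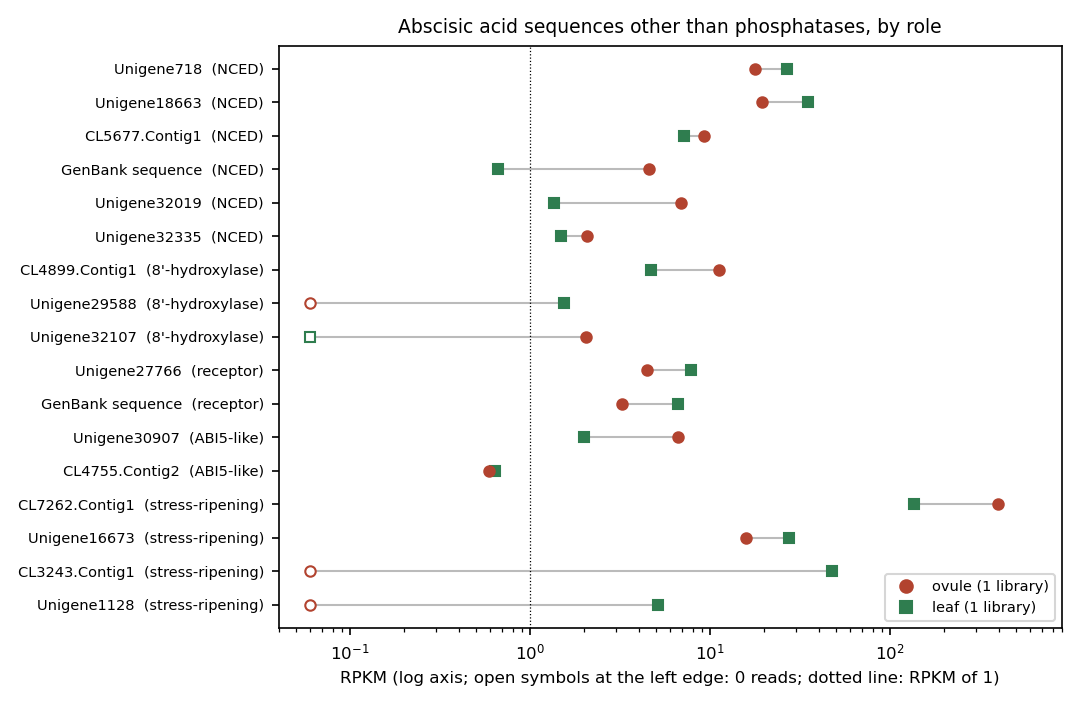
RPKM of the 17 abscisic acid sequences other than phosphatases in the ovule library (circles) and the leaf library (squares) on a log axis, grouped by role, with open symbols for 0 reads. The 2 most-read NCED sequences and both receptors lie further right in leaf, and CL7262.Contig1 in ovule.

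NCED, the regulated enzyme of abscisic acid synthesis, differed by less than 2-fold in each of its 3 well-read sequences. All 6 sequences summed to 370 ovule and 420 leaf reads, 1.23-fold lower in ovules (1.06 to 1.41). Unigene718 had an RPKM of 17.8 in ovules against 26.8 in leaves and was 1.51-fold lower in ovules (1.18 to 1.93). Unigene18663 had 19.5 in ovules against 34.7 in leaves and was 1.78-fold lower in ovules (1.38 to 2.32). Both have the same best hit, a protein of the conifer *Taxodium distichum*, and both were covered over more than 94% of their length, and whether they are pieces or copies of 1 gene is not given by the files. Neither passed 2-fold. CL5677.Contig1 stood at 9.24 in ovules against 7.19 in leaves, with an interval that included 1 (0.977 to 1.70 for ovule over leaf). Of the 3 NCED sequences with few reads, 2 were called higher in ovule on 2 leaf reads each, Unigene32019 with 11 ovule and 2 leaf reads and a GenBank sequence, similar to a yew protein, with 15 ovule and 2 leaf reads. The 3 sequences that share the *Taxodium* hit, which include Unigene32019, summed to 223 ovule and 323 leaf reads, 1.56-fold lower in ovules (1.31 to 1.86).

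Other enzymes of synthesis were looked up by name. Of 6 such sequences, all past the filter, 1 was called higher in ovule, 1 called higher in leaf, and 4 lay between, beside 27.3% and 35.1% over all sequences. Zeaxanthin epoxidase, which supplies the carotenoid precursors and also works in the xanthophyll cycle of leaves, had its most-read sequence (CL1191.Contig2) at an RPKM of 14.0 in ovules against 128 in leaves, 9.13-fold lower in ovules (7.78 to 10.8). An aldehyde oxidase (CL6146.Contig1), of the family that makes abscisic acid from abscisic aldehyde, was 1.60-fold lower in ovules (1.44 to 1.78) at 30.4 in ovules against 48.5 in leaves. A molybdenum cofactor sulfurase (Unigene26612), needed for that oxidase to work, had 25 ovule and 30 leaf reads, not detectably different. Of the synthesis enzymes named here, zeaxanthin epoxidase was the one called at more than 20 reads.

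For breakdown, the 8'-hydroxylase CL4899.Contig1 had an RPKM of 11.1 in ovules against 4.68 in leaves (118 ovule and 46 leaf reads) and was 2.38-fold higher in ovules (1.68 to 3.42). Its reads covered 26.3% of the contig in ovule and 23.6% in leaf. The other 8'-hydroxylase sequences had 2 and 0 reads (Unigene32107) and 0 and 3 (Unigene29588), which is at or under the floor of 3 reads.

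Receptor sequences had lower levels in ovule, though neither reached the calling threshold. The PYL2-like Unigene27766 had an RPKM of 4.47 in ovules against 7.80 in leaves (34 ovule and 55 leaf reads) and was 1.75-fold lower in ovules (1.12 to 2.76). A PYR1-like GenBank sequence stood at 3.23 in ovules against 6.66 in leaves and was 2.06-fold lower in ovules (0.95 to 4.73), an interval that included 1. The PYR1-like sequence was called higher in leaf with TMM scaling, with rescaling to TPM (RPKM brought to 1 total in both libraries) or with a pseudocount of 0.1. Summed over both, reads were 1.82-fold lower in ovules (1.24 to 2.70).

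**Figure D4:**
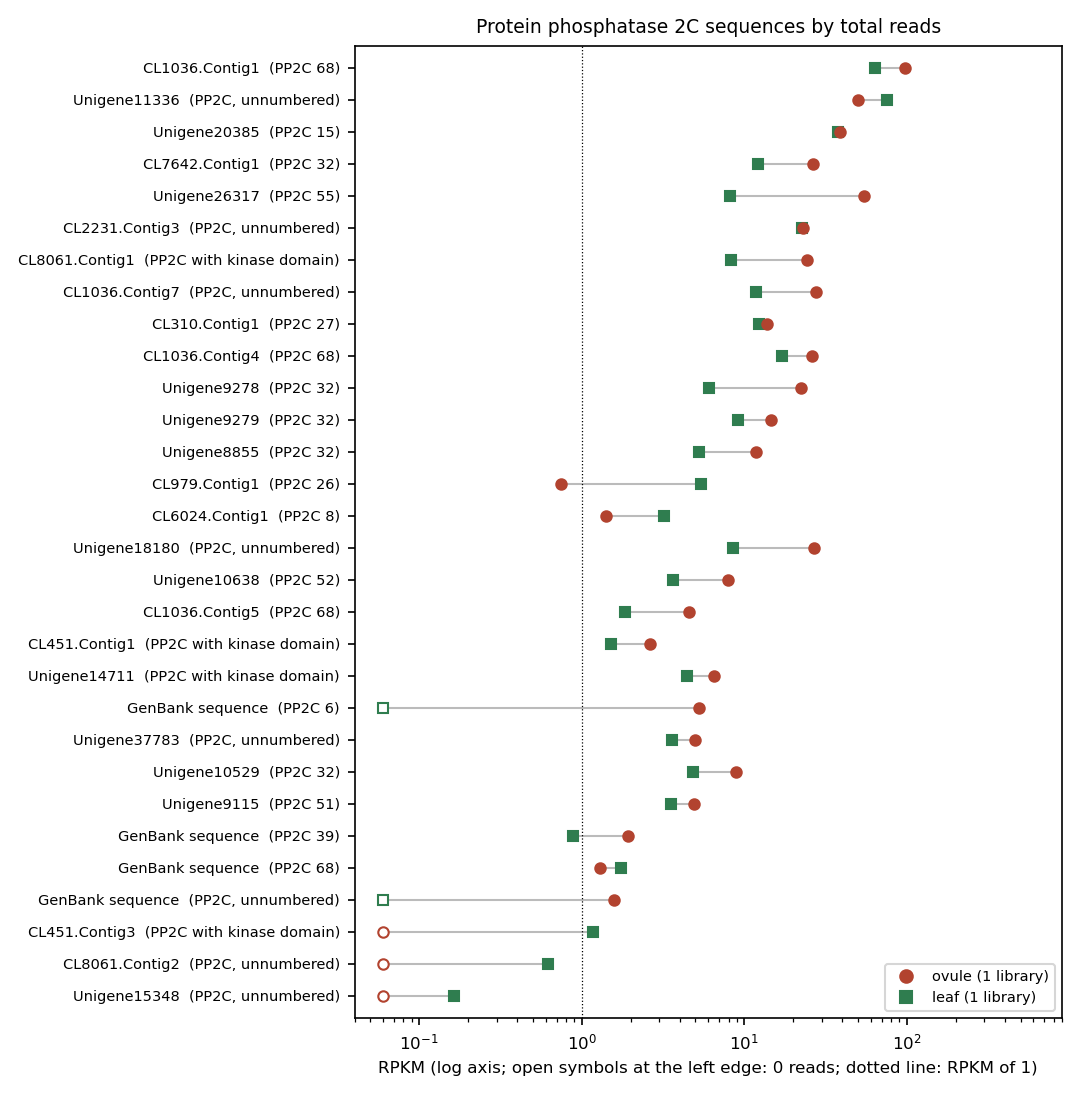
RPKM of the 30 protein phosphatase 2C sequences in the ovule library (circles) and the leaf library (squares) on a log axis, ordered by total reads, with open symbols for 0 reads. The ovule circle lies right of the leaf square for 23 of the 28 sequences past the filter, beside 60.0% of all sequences with 20 or more reads.

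Protein phosphatases 2C form a large family, of which only the branch known as clade A restrains abscisic acid signalling in Arabidopsis. None of the 30 descriptions carried an Arabidopsis clade A name or its number. The numbers in such names differ between Arabidopsis and rice, so the place of these sequences in the pathway is not given by the files. Of the 28 past the filter, 11 were called higher in ovule, 2 called higher in leaf, and 15 lay between, beside 27.3% and 35.1% over all sequences and 33.9% and 20.7% at 20 or more reads. The RPKM was higher in ovule for 23 of the 28, against 45.5% of all sequences, 53.2% of described ones and 60.0% of those with 20 or more reads. Of the 2 leaf calls, that of CL451.Contig3 rests on 1 leaf read. Summed over the 30 phosphatases, reads were 1.41-fold higher in ovules (1.34 to 1.48), or 1.36-fold (1.29 to 1.44) without the most-read CL1036.Contig1. With TMM scaling 4 of the 11 calls (CL7642.Contig1, Unigene8855, Unigene10638 and CL1036.Contig5) were lost.

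The largest phosphatase contrast toward ovule among sequences with reads in both tissues was that of the PP2C 55-like Unigene26317. It had an RPKM of 54.6 in ovules against 8.13 in leaves (362 ovule and 50 leaf reads) and was 6.71-fold higher in ovules (4.98 to 9.21), with 97.0% of its bases covered in ovule. PP2C 32-like sequences, whose name in Arabidopsis belongs to POLTERGEIST, a phosphatase of meristem signalling, summed over 5 members to 634 ovule and 257 leaf reads, 2.29-fold higher in ovules (1.97 to 2.65). Its longest member, CL7642.Contig1, stood at 26.4 in ovules against 12.2 in leaves and Unigene9278 at 22.3 in ovules against 6.02 in leaves. A phosphatase joined to a kinase domain (CL8061.Contig1) was 2.93-fold higher in ovules (2.24 to 3.87) at 24.3 in ovules against 8.30 in leaves. The 4 contigs of cluster CL1036, mostly PP2C 68-like, summed to 1402 ovule and 800 leaf reads, 1.62-fold higher in ovules (1.49 to 1.77). CL1036.Contig1 was the most abundant of all phosphatases in ovule, at an RPKM of 98 in ovules against 63.5 in leaves, 1.54-fold higher in ovules (1.40 to 1.71). In the same cluster CL1036.Contig7 stood at 27.5 in ovules against 11.7 in leaves and CL1036.Contig4 at 25.9 in ovules against 17.1 in leaves. All 4 contigs had the higher RPKM in ovule, and reads may be split among them. Among short pieces, Unigene18180 was 3.13-fold higher in ovules (1.38 to 7.96) with 27 ovule and 8 leaf reads, and the PP2C 52-like Unigene10638 had 21 ovule and 9 leaf reads and an interval that included 1.

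Abundant phosphatases of level expression stood beside these. The PP2C 15-like Unigene20385 had an RPKM of 38.5 in ovules against 37.8 in leaves, CL2231.Contig3 23.0 in ovules against 22.6 in leaves, and the PP2C 27-like CL310.Contig1 13.7 in ovules against 12.3 in leaves, each with an interval that included 1. Toward leaf, Unigene11336 had 50.4 in ovules against 75.3 in leaves and was 1.49-fold lower in ovules (1.33 to 1.68), which was not called. The PP2C 26-like CL979.Contig1, with 5 ovule and 34 leaf reads, was 7.34-fold lower in ovules (2.86 to 24), on 15.2% of its bases in leaf. The PP2C 8-like CL6024.Contig1, with 12 ovule and 25 leaf reads, was 2.25-fold lower in ovules (1.09 to 4.91), just short of the call, which it passed with TMM scaling, TPM or a pseudocount of 0.1. Both of these leaf-leaning sequences were covered over a small part of their length. A GenBank PP2C 6-like sequence had 17 ovule and 0 leaf reads, at least 5.25-fold higher in ovule, with the reads on 11.5% of its bases.

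Downstream factors had few reads. The ABI5-like Unigene30907, of the bZIP factors that act in seed responses to abscisic acid, had an RPKM of 6.66 in ovules against 2.0 in leaves (18 ovule and 5 leaf reads) and was 3.34-fold higher in ovules (1.19 to 11.5). A second ABI5-like sequence had 1 read in each tissue. An ABA-responsive element binding protein (Unigene21773), outside the list, had 20 ovule and 25 leaf reads, not detectably different. S-type anion channels of the SLAH3 type, relatives of the guard cell channel SLAC1, were low in ovules. All 3 sequences past the filter were higher in leaf, beside 35.1% of all sequences. All 4 summed to 2 ovule and 61 leaf reads, 32.9-fold lower in ovules (8.73 to 278). Of the 61 leaf reads, 31 lay on 4.99% of the bases of CL3581.Contig3 and 18 on 9.32% of CL3581.Contig1, a contig of the same cluster. In all, 15 sequences related to abscisic acid but outside the list were looked up by name, and 13 passed the filter. Of these 2 (15.4%) were called higher in ovule, 5 (38.5%) called higher in leaf, and 6 lay between. Over all sequences the shares were 27.3% and 35.1%. The median log2 ratio of the 13 was -0.41, so the lean of the list to ovule was not seen in them.

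Abscisic stress ripening proteins, small hydrophilic proteins that abscisic acid and water stress induce in many plants, gave the highest level and the sharpest split of the list. CL7262.Contig1 had an RPKM of 395 in ovules against 135 in leaves (1813 ovule and 574 leaf reads), ranked 155 of all sequences in ovule and 778 in leaf, and was 2.93-fold higher in ovules (2.66 to 3.22). CL3243.Contig1 had 0 ovule and 70 leaf reads, an RPKM of 0 in ovules against 47.5 in leaves, at least 25.2-fold lower in ovules. Unigene1128 had 0 ovule and 11 leaf reads, at least 3.96-fold lower in ovules, and Unigene16673 stood at 15.7 in ovules against 27.5 in leaves, 1.75-fold lower in ovules (1.08 to 2.88) and not called. The most abundant copy thus had more RPKM in ovule and the 3 weaker ones less. Without CL7262.Contig1 the family summed to 29 reads in ovule and 128 in leaf, 4.76-fold lower in ovules (3.16 to 7.40), whereas with it the sum was 2.43-fold higher in ovules (2.23 to 2.66).

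**Figure D5:**
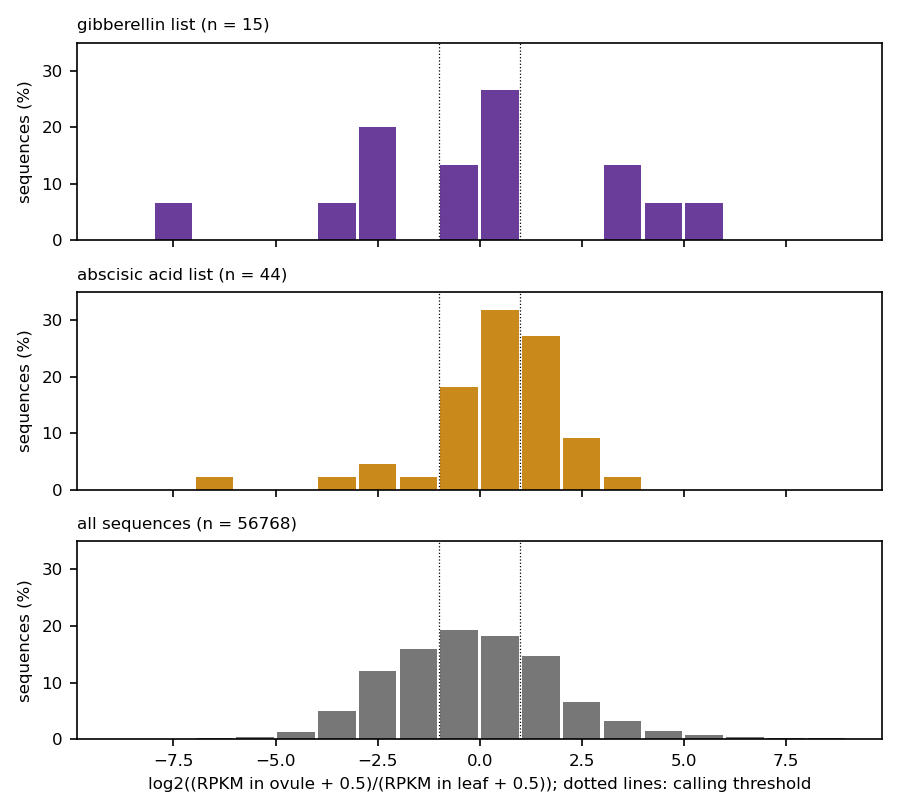
Share of sequences past the filter by log2((RPKM in ovule + 0.5)/(RPKM in leaf + 0.5)) in bins of 1, for the gibberellin list (15), the abscisic acid list (44) and all sequences (56768), with dotted lines at the calling threshold. The gibberellin list has members far out on both sides, and the abscisic acid list is gathered around and just above 0.

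Of the gibberellin sequences past the filter 9 of 15 were called in 1 direction or the other, as were 22 of 44 abscisic acid sequences, beside 62.4% of all sequences. The origin of the reference sequence moved with direction. Of all GenBank sequences past the filter 55.6% were higher in ovule and 17.6% in leaf, against 25.2% and 36.4% of assembled ones. Of the 7 GenBank members past the filter 4 were higher in ovule and none in leaf, and the part of this origin in their calls was not tested. Among assembled members, the calls were 3 and 5 of 14 for gibberellin and 14 and 5 of 38 for abscisic acid.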

How the data were processed

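Each deposited table lists, per the file headers, a sequence's length, its uniquely mapped read count, its RPKM, the percent of its length with read coverage, ontology terms and the best nr match. How the authors assembled, aligned and annotated, and with which versions, is not given in the sources used here. Tested on the files, the deposited counts sum to the header totals and the deposited RPKM follows from count, length and total to a relative tolerance of 1e-06. The 2 tables were joined by identifier, and a sequence absent from 1 library had 0 reads there. Single reads covered 49 bases. For a sequence of 1000 bases, 3 reads correspond to 0.655 RPKM in ovule and 0.707 RPKM in leaf.

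Members were found by text in the description with species names removed. The members and lists were chosen with earlier results of these data known. Members were named if they passed the filter with at least 20 reads in all, or had the most reads of their role, and the same held for the most-read sequence of each related class. Outside this rule, and after their values were seen, Unigene49604, Unigene51789, Unigene10640, Unigene32019, Unigene32107, Unigene29588, Unigene1128, CL491.Contig1, CL451.Contig3, CL3581.Contig1, Unigene23761, Unigene27676, and GenBank sequences for NCED, PP2C 6 and gibberellin-regulated protein 4 were named. So was the GenBank sequence described as responsive to dehydration 19. Levopimaradiene synthase, whose description also names a copalyl step, was not counted as a copalyl synthase.

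Ratios, intervals and medians were computed with Python 3.11.15, pandas 2.3.3 and SciPy 1.17.1, and tested on simulated data. No p-value was computed. Alternatives changed the pseudocount, the filter, the scaling (TMM from edgeR 4.0.16, size factors from DESeq2 1.42.0, TPM), the call rule and the sequences included. Read counts without molecular identifiers can hold amplification duplicates, which the intervals do not cover. No sequence letters were used here.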

Additional observations from a re-analysis of the deposited data

How the results depend on the processing

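The abscisic acid median, 0.61, lay between 0.42 and 0.62 under the alternatives run, except that it was -0.12 without the phosphatases. The gibberellin median, 0.08, lay between -0.33 with assembled sequences alone and 0.26 with the higher filters, and was -0.07 with TMM, so it carries no direction. The 5 gibberellin calls toward leaf became 3 at 20 or more reads. The summed gibberellin ratio of ovule over leaf, 0.468, was 0.420 with TMM, 0.417 with TPM, 0.442 for assembled sequences alone, 0.302 without the most-read CL4663.Contig2, 0.791 without the GASA family, and 0.836 without sequences whose reads cover under 10% of their bases, an alternative chosen after seeing the data.

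For abscisic acid, the 17 calls toward ovule became 13 with TMM, 13 with TPM, 10 with reads summed per description and 6 without phosphatases. The 5 calls toward leaf rose to 7 with TMM, with TPM and with a pseudocount of 0.1, where 18 were called toward ovule. Calls toward leaf fell to 3 with an RPKM filter of 5 and to 2 with a filter of 20 reads. They were also 3 with an interval that excludes 1, 3 per description and 3 without phosphatases. The summed ratio, 1.52, was 1.37 with TMM, 1.36 with TPM, 1.28 without CL7262.Contig1 and 1.77 without phosphatases. Without both the phosphatases and CL7262.Contig1 it was 0.796 (0.711 to 0.890). Adding the GABA transporters, also chosen after seeing the data, left 17 and 5 calls. Where fewer sequences were counted, that alone lowers a count; otherwise the cause was not tested. No paired analysis was possible because each tissue had 1 library. Depth limits every member under 20 reads.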

Other observations

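Some enzymes of these hormones were named by the deposited ontology column and not by the description. The terms were examined after the values were seen, and they rest on similarity. A pair of sequences described as unknown carried the term gibberellin carboxyl-O-methyltransferase activity, an enzyme that inactivates gibberellins by methylation in Arabidopsis. Unigene10349 had an RPKM of 96.6 in ovules against 3.80 in leaves (247 ovule and 9 leaf reads) and was 25.4-fold higher in ovules (13.2 to 56.3), with 99.8% of its bases covered in ovule. CL2483.Contig1 stood at 28.7 in ovules against 8.54 in leaves, 3.36-fold higher in ovules (2.50 to 4.59). For abscisic acid, Unigene13850 carried the 8'-hydroxylase term and stood at 6.20 in ovules against 13.5 in leaves, 2.18-fold lower in ovules (1.58 to 3.04), opposite to CL4899.Contig1, which carries the same term. Breakdown by this enzyme thus has a sequence called in each direction. The term abscisic acid binding was on 6 sequences, with 1 called in each direction, beside 27.3% and 35.1% over all sequences. The ovule call was a GenBank sequence described as a GPCR-type G protein, with 2 ovule and 0 leaf reads. The leaf call was CL5341.Contig1, 8.16-fold lower in ovules (4.83 to 14.7) at 0.897 in ovules against 7.33 in leaves. The most-read, Unigene10815, described as a lanC-like protein, was 1.53-fold higher in ovules (1.18 to 2.0) and not called. It had an RPKM of 20.8 in ovules against 13.6 in leaves, and Unigene12088 stood at 13.4 in ovules against 13.5 in leaves.

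The ontology lists were larger than the description lists. Terms naming gibberellin were on 114 sequences and held 7 of the 17 members (41.2% of the members and 6.14% of the term list). Of 102 past the filter, 42 (41.2%) were called higher in ovule and 20 (19.6%) called higher in leaf, and the median log2 ratio was 0.58. The term for gibberellic acid mediated signaling had 18 of 33 higher in ovule and 3 in leaf. Terms naming abscisic acid were on 621 sequences and held 8 of the 47 members (17.0% and 1.29%). Of 548 past the filter, 196 (35.8%) were called higher in ovule and 121 (22.1%) called higher in leaf, and the median was 0.40. Within them the biosynthesis term had 3 sequences (10.3%) higher in ovule and 6 (20.7%) in leaf of 29, both under the shares over all sequences. Positive regulation of abscisic acid signaling had 13 and 2 of 26. Negative regulation of that signaling had 12 and 4 of 28, so both terms leaned to ovule in count. The broader term abscisic acid mediated signaling pathway had 29 (27.6%) and 21 (20%) of 105, with a median of 0.05. Summed over the 621 sequences, reads were 1.115-fold lower in ovules (1.107 to 1.124), against the direction of the counts. That difference came from 1 sequence. Without the most-read CL3003.Contig1 reads were 1.007-fold lower in ovules, with an interval that included 1 (0.999 to 1.015). The RPKM of the 621 summed to 21040 in ovules against 20083 in leaves. Described sequences as a whole had 30.2% and 25.5%, and all sequences 27.3% and 35.1%.

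Of 3 dehydration-responsive sequences past the filter, 1 was called in each direction and 1 lay between, beside 27.3% and 35.1% over all sequences. A sequence described as a dehydration-responsive family protein (Unigene20031) had an RPKM of 89.0 in ovules against 16 in leaves. It was 5.56-fold higher in ovules (4.71 to 6.60). A GenBank sequence described as responsive to dehydration 19 had 0 ovule and 6 leaf reads, at least 2.16-fold lower in ovules. A DREB factor (Unigene27676) had 21 ovule and 11 leaf reads, not detectably different. Whether these sequences respond to abscisic acid in ginkgo was not tested.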
